A study of Rattus norvegicus with 21 samples.

Results

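Sharp boundaries are places where an unmethylated stretch of DNA meets a methylated one within 500 bp. They were looked for in bisulfite sequencing data of rat dorsal striatum, a forebrain region that controls movement and needs dopamine to do so. The rn5 genome was divided into tiles of 250 bp, and a tile's methylation level was the percent of its reads at CpGs that still carried C after bisulfite treatment. A boundary was a pair of directly adjacent tiles on chromosomes 1 to 20, both with at least 2 CpGs in all 21 libraries, of which one had a mean level under 10% and the other of 80% or above in the 6 unlesioned libraries. This rule held for 21 of 44498 adjacent tile pairs, or 0.0472%. Because the boundaries were chosen by the levels of the unlesioned libraries, their low side, high side and step in that group are a description, and no result is drawn from a test of them.

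The study asked how DNA methylation in the striatum relates to dyskinesia, the abnormal movements that follow L-DOPA treatment of animals without striatal dopamine. All samples were dorsal striatum of wild type Sprague Dawley rats 120 days old. The 6 unlesioned saline samples served as intact controls. The 8 lesioned saline samples and the 7 lesioned L-DOPA samples came from rats with a one-sided lesion of the left medial forebrain bundle, made with 6-OHDA, a toxin of catecholamine neurons. After 3 weeks of recovery the L-DOPA group was injected daily with 6 mg/kg for 7 days and was killed 3 h after the final dose. The labels do not say which hemisphere or operation the unlesioned samples had, nor whether each sample is a separate animal, so p-values measure only the spread between these samples. The tissue is a mixture of neurons and glia, and a different mix of cells cannot be told apart from different methylation within a cell. The boundaries are given by rn5 position only, since an annotation of that build was not used here, and whether they lie in a gene is not stated.

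In mammalian DNA most CpGs are methylated by DNA methyltransferases, while CpG islands, which often hold promoters, stay unmethylated. Between an island and the methylated DNA around it usually lies a shore, a stretch where methylation climbs gradually. A boundary without a shore is one where neighbouring CpGs pass from one state to the other, and bound proteins, histone marks and active transcription are known to keep such edges in place.

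Library depth set what could be seen. Median coverage per listed cytosine was 37 to 70 reads across libraries, and every listed cytosine had at least 10 reads. At a boundary the unmethylated tile had a median of 42 to 1780 reads per library and the methylated tile a median of 41 to 487. In 3 libraries reads were concentrated in CpG-dense tiles: the ratio of median reads in tiles of 15 or more CpGs to those of 2 or 3 CpGs was 29.5 in L-DOPA replicate 3, 31.1 in L-DOPA replicate 7 and 33.2 in unlesioned replicate 1, against 13.6 to 24.7 in the others. The same 3 libraries had a mean level over common tiles of 41.7% to 42.3%, and the others of 44.0% to 47.7%. The mean step, and the differences in mean step and position between the lesioned groups, are therefore also given below without them.

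Where the end of an unmethylated stretch was measured, the neighbouring tile was mostly only a little above the limit. In unlesioned striatum 2371 adjacent pairs had exactly 1 tile under 10%. The neighbour stood between 10% and 20% in 1560 of these pairs (65.8%), between 20% and 50% in 675, between 50% and 80% in 115 and at 80% or above in 21 (0.886%). Pairs in which both tiles were under 10% numbered 27469, and pairs in which both were at 80% or above numbered 5206. The sharp pairs held fewer CpGs: their unmethylated tile had a median of 3 CpGs and 136 reads, against 7 CpGs and 608.5 reads where the neighbour stood between 10% and 20%.

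**Figure D1:**
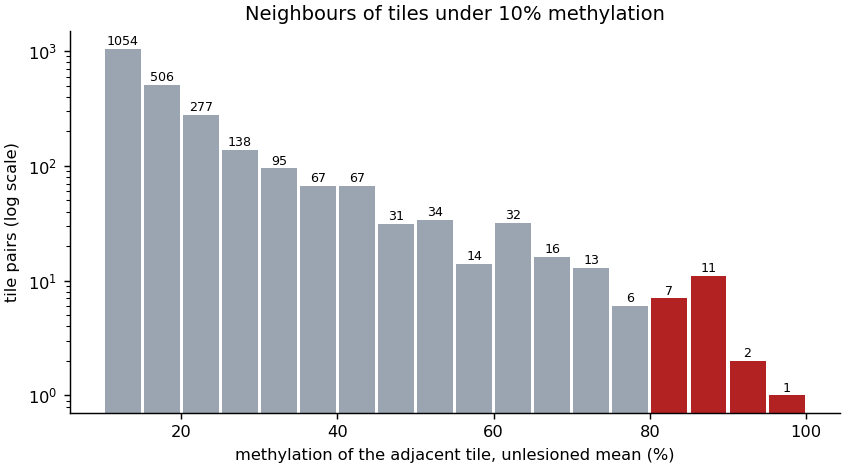
Number of adjacent tile pairs with exactly 1 tile under 10% methylation (vertical axis, log scale) by the level of the other tile in 5-point bins (horizontal axis, mean of the 6 unlesioned libraries). The 21 pairs at 80% or above, in red, are the sharp boundaries, and the first bar holds 1054 pairs.

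The boundaries lay on 10 chromosomes, and are numbered here from 1 to 21 in genome order. The unmethylated tile came first along the chromosome in 15 and second in 6. No unmethylated stretch was closed by a sharp boundary at both ends. At 11 boundaries the run of adjoining tiles under 10% was 1 tile long, and at 10 it was 2 or more. The longest such run had 8 tiles (2000 bp) and ended at boundary 21, chr19:28578751-28579250. On the methylated side the run at 80% or above was 2 tiles or more at 4 boundaries, and the longest, 4 tiles, began at boundary 4, chr1:154723501-154724000. Beyond these runs the next tile was rarely measured. It was measured past the unmethylated side at 4 boundaries, with levels of 10.3% to 70.2%, and past the methylated side at 2, with 59.1% and 74.8%.

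At most boundaries the greater part of the change fell between a single pair of neighbouring measured CpGs. The rule left little room for another outcome, so this is a description and not a result about abruptness. It had set a low tile beside a high one, with a median of 2 and 3 CpGs measured everywhere. The 2 tiles of the 21 boundaries together held 141 CpGs measured in every library. In unlesioned striatum 69 of these stood under 20%, 58 at 80% or above and 14 between, of which only 3 lay between 20% and 70%. A change point was placed in each library, and in the unlesioned means, where a single step split the CpGs with the least squared error. In the unlesioned means the CpGs on its sides were 111 to 409 bp apart, with a median of 266 bp. At 17 boundaries they were more than 200 bp apart. The difference between these 2 CpGs was 53.1 to 93.6 percentage points, with a median of 78.7, and it was at least 70 points at 17 boundaries. By the CpGs measured in all libraries the step was thus resolved no finer than this gap. No CpG within the gap was measured in all libraries, but some gaps held CpGs measured in part of them.

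**Figure D2:**
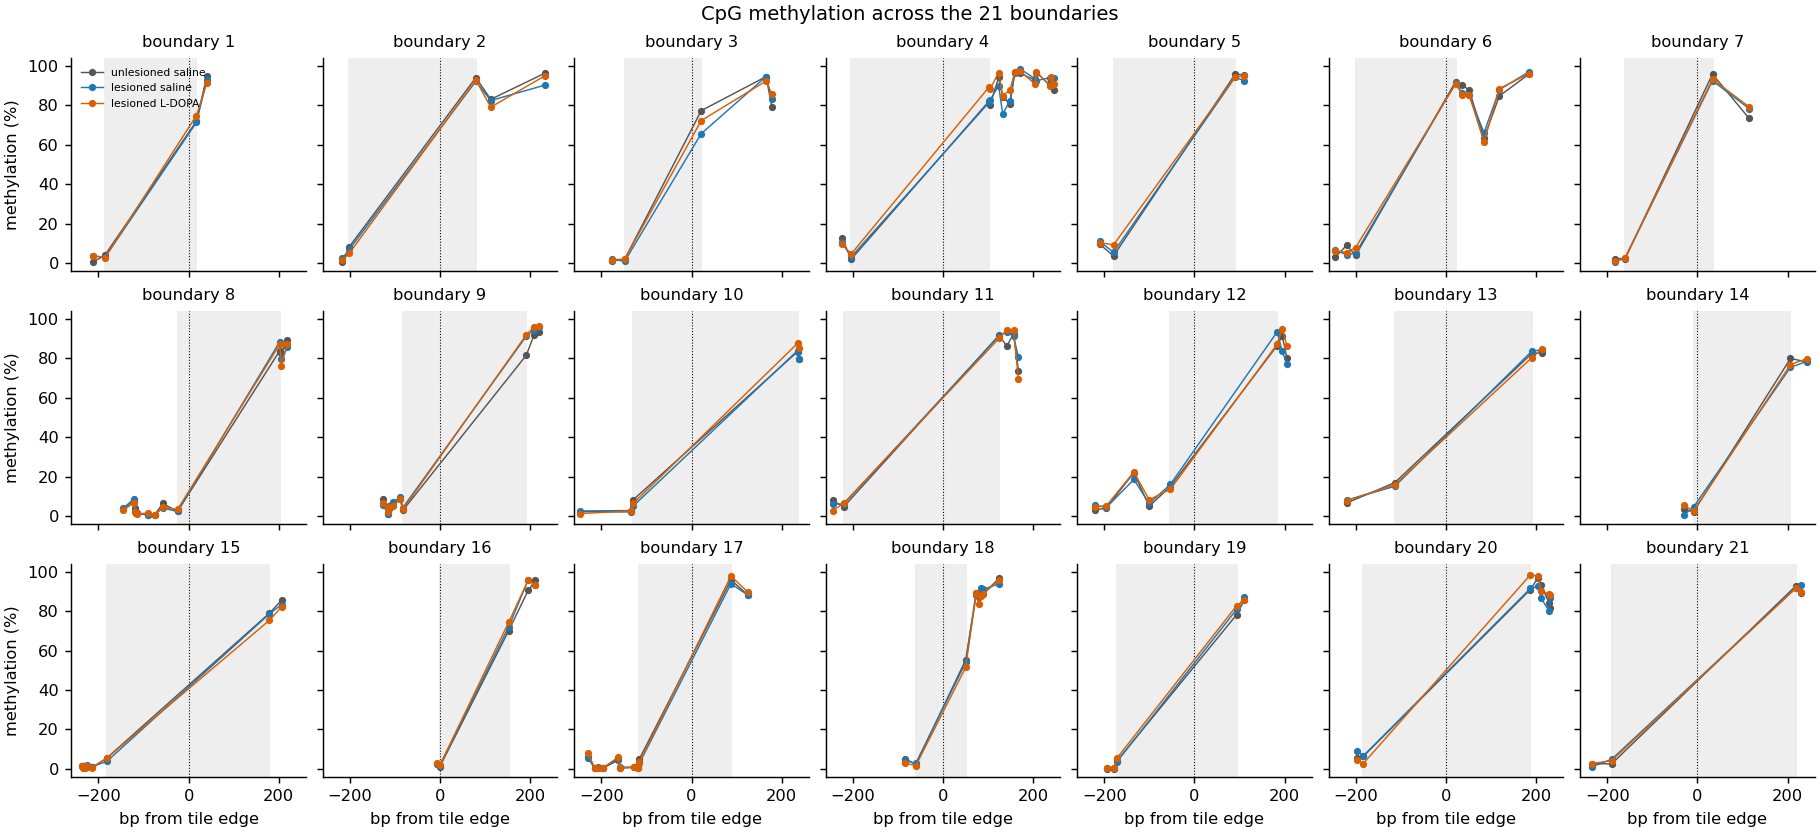
Mean methylation of each CpG measured in all 21 libraries (vertical axis, percent) by its distance from the edge between the tiles (horizontal axis, bp, positive towards the methylated tile), 1 panel per boundary and 1 colour per group. Grey marks the gap that holds the change point in the unlesioned means, from 111 to 409 bp wide. At the 129 CpGs tested, the L-DOPA minus lesioned saline difference in mean ran from -11.2 to 11.4 points.

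Boundary 17, chr10:89024251-89024750, had the largest step in unlesioned striatum. Its unmethylated tile held 9 CpGs measured everywhere, from 89024271 to 89024385, with unlesioned means between 0.181% and 5.86%. The next CpG measured everywhere, at 89024588 and 203 bp further on, stood at 95.9% ± 4.65 (SD, n = 6), and the one at 89024626 at 88.0% ± 5.62. The step between the tiles was 84.6, 90.9 and 95.3 points (lowest, median and highest) in the unlesioned libraries. It was 80.7, 88.6 and 94.9 in lesioned saline and 88.9, 91.2 and 94.99 in L-DOPA libraries. The ranges of all 3 groups overlapped, and all 21 libraries met the rule singly.

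Boundaries 5, 7, 2 and 21 came next by step. Boundary 5, chr3:158901001-158901500, rested on 2 CpGs per tile, at 9.59% and 3.64% before a gap of 270 bp and at 95.9% and 95.4% after it. Its step was 79.7, 87.9 and 98.3 points in unlesioned, 77.02, 86.6 and 92.6 in lesioned saline and 76.0, 87.4 and 90.8 in L-DOPA libraries, with ranges that overlapped. This pair was thinly covered, with a median of 42 and 41 reads on its sides. Boundary 7, chr5:176944001-176944500, passed from 2.30% to 95.9% within 194 bp, the largest difference between neighbouring CpGs of a boundary, at 93.6 points. Boundary 2, chr1:138422501-138423000, had the methylated tile first, and its step was 81.1, 88.4 and 92.2 points in the unlesioned libraries. Boundary 21, at the end of the longest unmethylated run, had the widest gap, 409 bp, between CpGs of 2.49% and 92.8%.

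Boundary 8, chr6:116020501-116021000, and boundary 15, chr10:29291501-29292000, showed dense unmethylated sides. The 9 CpGs of boundary 8 between 116020606 and 116020726 had unlesioned means of 0.407% to 7.67%, and the 3 CpGs after a gap of 227 bp had 82.7% to 89.4%. The 6 CpGs of boundary 15 had 0.821% to 5.46%, and its 2 methylated CpGs, 361 bp away, had 79.0% and 85.5%. Both edges were read deeply on the unmethylated side, with medians of 1531 and 1434 reads, and much less on the other, with 118 and 42. Boundary 4 was dense on the methylated side instead, where 12 CpGs measured everywhere had unlesioned means of 80.1% to 96.9%.

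Boundaries 18, 16, 3 and 7 had the shortest gaps, and boundaries 17 and 1 followed with 203 bp each. Boundary 16, chr10:84234751-84235250, lay at 2.71% and 1.13% at its 2 last unmethylated CpGs, and 153 bp further on at 70.2% ± 13.1 (SD, n = 6), followed by 90.5% and 95.6%. Boundary 3, chr1:141453751-141454250, rose within 170 bp from 1.85% to 77.3% ± 6.89, followed by 94.6% and 79.1%. In both the first methylated CpG was lower than the next one. Its group means were 70.2%, 72.1% and 74.4% at boundary 16 and 77.3%, 65.6% and 72.3% at boundary 3, in the order unlesioned, lesioned saline and L-DOPA.

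Boundary 18, chr10:98506001-98506500, had the shortest gap, 111 bp, and the lowest first CpG past the gap of all 21 boundaries. The CpGs at 98506166 and 98506190 had unlesioned means of 5.18% and 2.20%. The CpG at 98506301 had 55.3% ± 20.3 (SD, n = 6), and the 5 CpGs from 98506324 to 98506375 had 87.4% to 96.7%. At 98506301 the lowest, median and highest values were 23.1%, 62.7% and 73.5% in unlesioned, 42.1%, 55% and 66.7% in lesioned saline and 41.1%, 51.7% and 60% in L-DOPA libraries. The 3 ranges overlapped, on 19 reads or more per library. Another CpG well below its neighbours lay inside the methylated tile of boundary 6, at 172834166, with means of 63.4%, 66.1% and 61.5%, in the order unlesioned, lesioned saline and L-DOPA.

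**Figure D3:**
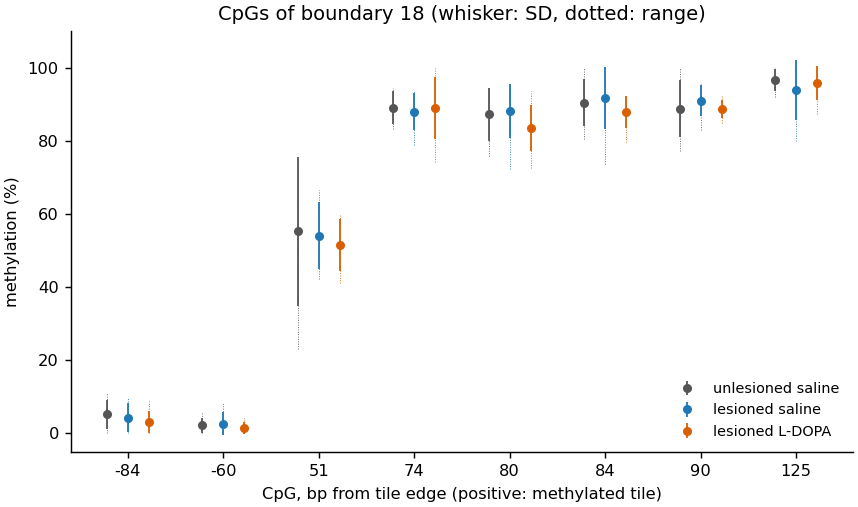
Methylation (vertical axis, percent) of the 8 CpGs of boundary 18 measured in all libraries, by distance from the tile edge (horizontal axis, bp, CpGs evenly spaced), with the mean, SD (whisker) and range (dotted) of each group. The CpG in the first part of the methylated tile stood at 51.6% to 55.3% in the group means, between CpGs near 0% and CpGs near 90%.

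The position of the boundaries varied between libraries at 1 of them. At 20 of 21 boundaries the change point fell in the same gap in all 21 libraries. The rule left little room for anything else, so this is not read as a stable position. It had set a low tile beside a high one, with a median of 2 and 3 CpGs measured everywhere. The exception was boundary 18, where it fell before the CpG at 98506301 in 4 of 6 unlesioned, 4 of 8 lesioned saline and 4 of 7 L-DOPA libraries, and after it in the others. The mean position over the 21 boundaries, counted from the tile edge towards the methylated side, was -1.88 bp ± 1.71 (SD, n = 8) in lesioned saline and -2.11 bp ± 1.71 (n = 7) in L-DOPA libraries. The difference was -0.228 bp (SE 0.883), all of it from boundary 18, and it was 0.319 bp without the 3 libraries of concentrated reads. A shift within a gap could not be seen at this CpG spacing.

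The height of the boundaries differed little between the lesioned groups beside its spread. The mean step over the 21 boundaries was 82.5 points ± 1.59 (SD, n = 6; 80.6 to 84.7) in unlesioned, 82.4 ± 0.868 (n = 8; 81.3 to 83.7) in lesioned saline and 82.6 ± 1.07 (n = 7; 81.0 to 83.9) in L-DOPA libraries. The unmethylated side averaged 4.18%, 4.43% and 4.49%, and the methylated side 86.7%, 86.8% and 87.1%. The L-DOPA minus lesioned saline difference in step was 0.231 points (SE 0.507), less than the spread between libraries of one group, and 0.525 without the 3 libraries of concentrated reads. Without them the L-DOPA libraries averaged 4.83% on the unmethylated and 87.7% on the methylated side (n = 5), while lesioned saline had none to leave out. Their mean step was then 82.9 points, and that of the unlesioned libraries also 82.9 (n = 5).

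Library numbers in the deposited names form 2 separate runs, and the sources used here do not say what these mean. In the first run the mean step was 82.1 ± 0.731 (n = 6) in lesioned saline and 83.0 ± 0.189 (n = 3) in L-DOPA libraries, a difference of 0.897. In the second it was 83.3 ± 0.599 (n = 2) and 82.3 ± 1.43 (n = 4), a difference of -0.956. The sign of the difference in mean step thus turned between the runs. All unlesioned libraries are in the second run.

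**Figure D4:**
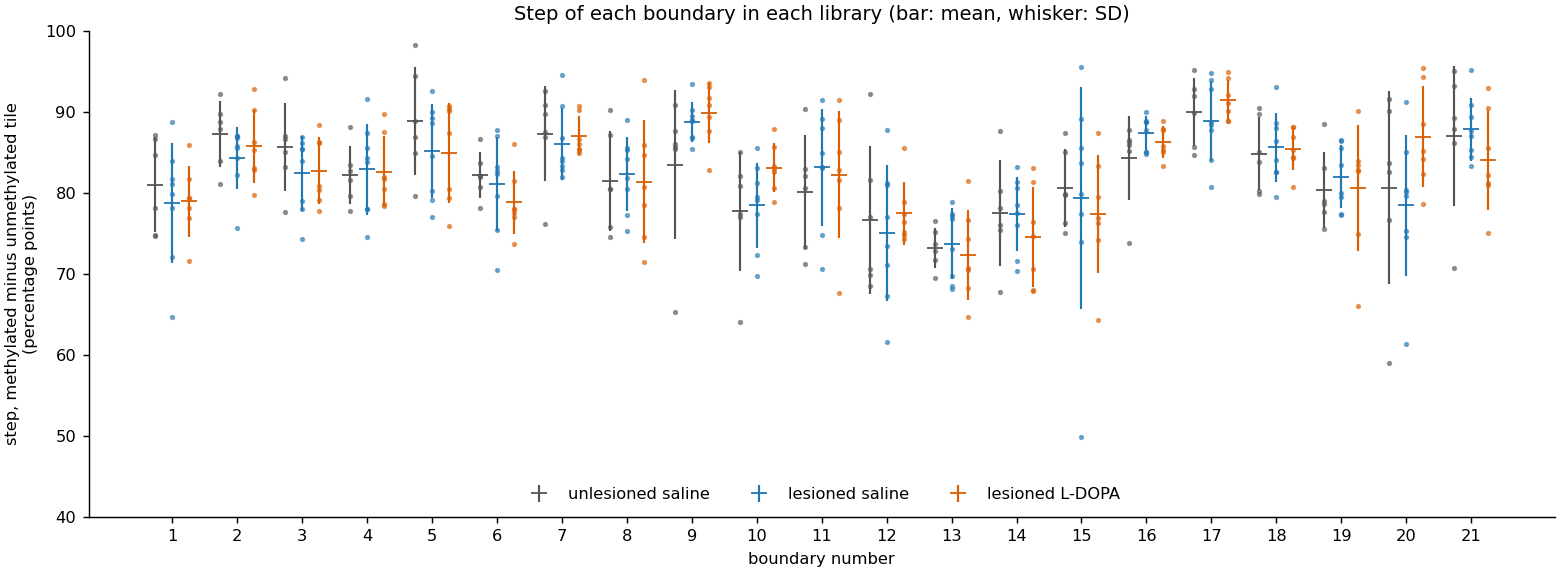
Step of each boundary (vertical axis, percentage points between its methylated and unmethylated tile; the axis starts at 40) in each library (points), with the mean and SD of each group. The groups overlap at all 21 boundaries, and the lowest point is the 49.8 of a lesioned saline library at boundary 15.

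Single boundaries were compared between L-DOPA and lesioned saline with limma, fitted to the steps of all 45160 adjacent tile pairs. No pair passed a Benjamini-Hochberg adjusted p of 0.05 (0% of pairs), and none of the 21 boundaries did. At an unadjusted p under 0.05 there were 2118 pairs (4.69%) and 0 boundaries. At that level limma on log2 odds gave 1 boundary (5% of all pairs), and 0 adjusted. The spread came from all 21 libraries, the unlesioned ones that chose the boundaries among them. Limma on the L-DOPA and lesioned saline libraries only gave 2 boundaries at that level, among 2108 of 45160 pairs, and 0 adjusted. The smallest unadjusted p among boundaries was then 0.037 by limma. The mean step was higher under L-DOPA at 9 boundaries and lower at 12, with differences of -3.83 to 8.48 points and a median of -0.26, beside a median of 0.0251 over all pairs. Standard errors were 1.59 to 4.86 points. The ranges of the 2 groups failed to overlap at 0 boundaries, and at 0.0315% of the 44498 adjacent pairs on chromosomes 1 to 20.

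Boundary 20, chr18:24933751-24934250, had the smallest p among the boundaries. Its step was 61.4, 79.9 and 91.2 points in lesioned saline and 78.6, 85.2 and 95.5 in L-DOPA libraries, and 59.0, 83.2 and 91.7 in unlesioned ones. The ranges overlapped, and the L-DOPA libraries lacked the low values seen in the other groups. The difference of 8.48 points (SE 4.45) had an unadjusted p of 0.0712 and an adjusted p of 0.998 by limma. Both sides contributed, since the unmethylated tile averaged 7.82% in lesioned saline and 4.15% in L-DOPA libraries, and the methylated tile 86.3% and 91.1%.

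Boundary 10, chr7:82077501-82078000, came second, with steps of 69.7, 79.3 and 85.5 in lesioned saline and 78.9, 82.9 and 87.9 in L-DOPA libraries. Its difference of 4.65 points (SE 2.65) had an unadjusted p of 0.0943 by limma, and the ranges overlapped. Next among the higher ones was boundary 17, with 2.56 points (SE 1.98). On the lower side stood boundary 21 with -3.83 points (SE 3.07), boundary 14, chr8:116704251-116704750, with -2.85 (SE 2.81), and boundary 6, chr5:172834001-172834500, with -2.25 (SE 2.22). None of these 6 differences passed the test.

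**Figure D5:**
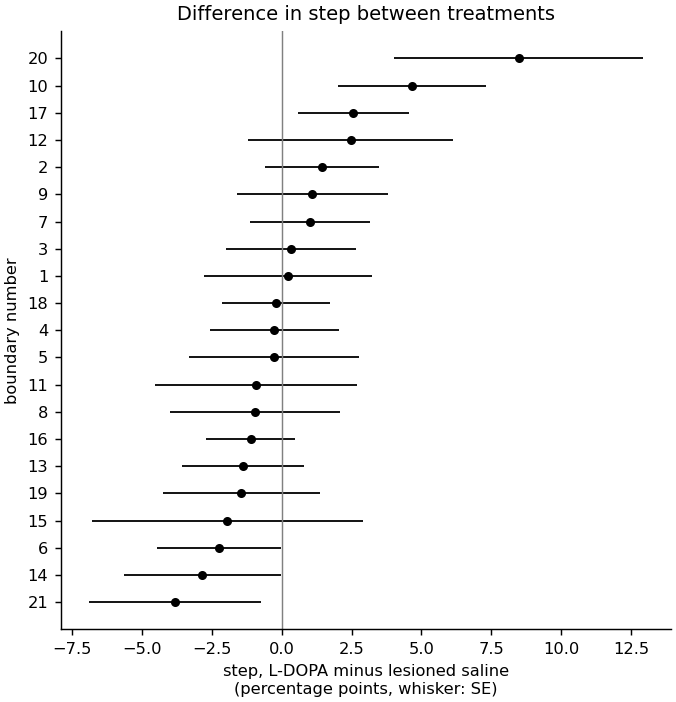
Difference in step between L-DOPA and lesioned saline libraries (horizontal axis, percentage points) for each boundary (vertical axis, ordered by the difference), with the standard error from limma as whisker. The values run from -3.83 at boundary 21 to 8.48 at boundary 20, with 9 above and 12 below 0.

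The tiles and CpGs that make up the boundaries were compared with a quasi-binomial model of methylated and unmethylated read counts. None of 180850 tiles tested passed an adjusted p of 0.05 (0%), among them the 42 boundary tiles. At an unadjusted p under 0.05 stood 6929 tiles (3.83%), none of them at a boundary, while limma on log2 odds gave 2 boundary tiles at that level (3.83% of its 138945 tiles) and 0 adjusted. Of the 141 boundary CpGs 129 passed the filter on pooled levels under 1% or over 99% and were tested, and 0 of them passed, as did 0 of all 575805 CpGs (0%). At an unadjusted p under 0.05 were 26518 CpGs (4.61%) and 1 boundary CpG, against 5 boundary CpGs by limma on log2 odds (4.6% of all CpGs), which called 0 boundary CpGs adjusted. That CpG lies at 135434056 on the methylated side of boundary 12, chr7:135434001-135434500. It stood at 83.6% ± 11.1 (SD, n = 8) in lesioned saline, 94.99% ± 4.02 (n = 7) in L-DOPA and 91.4% ± 5.87 (n = 6) in unlesioned libraries, and its unadjusted p was 0.0135 with an adjusted p of 0.997 by the quasi-binomial model.

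The comparisons with unlesioned striatum share the libraries that chose the boundaries, and nothing is read from them. The mean step was higher in lesioned than in unlesioned saline libraries at 10 boundaries and lower at 11.

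The rule was also applied to single libraries and to the other groups. Of 441 values, 21 boundaries in 21 libraries, 337 met both limits. The share was 76.98% in unlesioned, 75.6% in lesioned saline and 76.9% in L-DOPA libraries. At 3 boundaries (2, 17 and 18) all 21 libraries met the rule. At boundary 13, chr8:111391751-111392250, only 4 did. By group mean 19 boundaries met it in lesioned saline, all but 13 and 14, and 17 in L-DOPA libraries, all but 12, 13, 14 and 15. These exceptions lay close to the limits: boundary 13 had a low side of 9.37% in unlesioned, 10.2% in lesioned saline and 10.1% in L-DOPA libraries, and boundary 14 a high side of 80.3%, 79.9% and 78.6%. In the same order, boundary 12 had a low side of 8.91%, 8.94% and 10.5%, and boundary 15 a high side of 82.2%, 81.0% and 78.8%. The unlesioned means met the rule by choice, so the lower counts in the other groups are not read as a change. The step was at least 70 points in 418 of the 441 values, and the unmethylated tile stayed under 20% in all 441.

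Close to the limits themselves, the low sides just inside were those of boundaries 13 (9.37%) and 12 (8.91%). Just outside were chr12:47935751-47936250, with 10.1% beside 88.0%, and chr2:270056751-270057250, with 10.2% beside 91.0%. The high sides just inside were those of boundaries 14 (80.3%) and 10 (81.6%). Just outside were chr16:9453001-9453500, with 79.1% beside 4.00%, and chr10:86387001-86387500, with 78.1% beside 2.69%. The limits thus cut through a continuous range of levels.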

How the data were processed

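Bisulfite libraries of dorsal striatum (6 unlesioned saline, 8 lesioned saline, 7 lesioned L-DOPA) were sequenced as single-end reads of 50 bases, per the labels' protocols. Reads were mapped to rn5 with Bismark 0.13.0 and passed to methylKit 0.9.2, per the submitters' processing notes, which also list Trim Galore 0.3.7. The deposited files hold, for each cytosine, the read count and the percent methylated that the authors derived. Coverage times percent gave whole methylated counts for 100% of cytosines. Cytosines of both strands were joined into CpGs. Reads have no molecular identifiers, so counting errors can be too small where PCR copies remain.

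Steps were tested with limma 3.58.1 (R 4.3.3) over all adjacent pairs. Tiles measured in at least 5 libraries per group, and CpGs measured in all 21, were tested with a quasi-binomial model, with dispersion moderated by limma, kept at 1 or above, and Benjamini-Hochberg adjustment over all features. Both were tested on simulated data. The rest used Python 3.11.15 with NumPy 2.4.6 and pandas 2.3.3.

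The boundaries, the comparisons and the rule for naming were chosen with earlier results of these data known. Named were the 5 largest unlesioned steps, the 5 shortest gaps (ties by the larger step), the 3 smallest p per direction for the step under L-DOPA, the boundaries whose position differed, the 2 pairs nearest to each limit on each side and the longest runs; boundaries 1, 4, 8, 12 and 15 and the CpGs of boundaries 6 and 12 were added after their values were seen. Alternatives were other limits, a minimum of 20 reads, a shifted tile grid, other models, a replicate block, the library number runs and leaving out libraries.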

Additional observations from a re-analysis of the deposited data

Results flagged for a closer look

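The steps of each group at each boundary (63 sets), and each group's mean step, unmethylated and methylated level (9 sets), were screened for single libraries whose distance to the nearest one took up an unusual share of the whole range. Chance picks about 1 in 20 groups, or 3.6 of the 72 sets of values screened, and 7 were picked. At boundary 2 the step of lesioned saline replicate 2 was 75.7 points, with the next library at 82.3. At boundary 7 that of unlesioned replicate 1, one of the 3 libraries with concentrated reads, was 76.2, with the next at 86.99. Unlesioned replicate 4 was low at both boundary 9, with 65.2 against 85.5, and boundary 16, with 73.8 against 85.2. At boundary 12 L-DOPA replicate 7, another library with concentrated reads, was high with 85.6, and the next stood at 78.9. At boundary 15 lesioned saline replicate 1 had 49.8, with the next at 73.9, on a methylated tile with a median of 42 reads per library. At boundary 21 unlesioned replicate 5 had 70.8, with the next at 86.2. In each of these libraries the unmethylated tile stayed under 20%.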

How the results depend on the processing

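The number of boundaries depended on the limits and the depth, and which pairs were found also on the grid. Limits of under 5% and 90% or above left 2, limits of under 20% and 70% or above gave 101, which held all 21, and a minimum of 20 reads per cytosine left 4. A tile grid shifted so that its edges fell at the former tile centres gave 21 as well, but only 7 of the original boundaries lay within 250 bp of one of them. Counting each cytosine gave 22, levels from lesioned saline or L-DOPA libraries 23 and 21, and levels without unlesioned replicate 1 gave 23. The difference in mean step, 0.231 points, was -0.956 within the second library number run, 1.37 at 20 reads, 2.00 for the 2 strictest boundaries, -0.276 over the 101 boundaries and 0.0481 as an unweighted mean over CpGs. It ranged from 0.0102 to 0.4999 when each library was left out in turn. The difference in mean position, -0.228 bp, was 1.60 within the second run, 1.59 over the 101 boundaries and -2.33 for the interpolated crossing of 50%, and from -0.532 to 0 with each library left out. Without the 3 libraries of concentrated reads, an alternative chosen after seeing the data, it was 0.319. The interpolated crossing then lay at 9.67 bp ± 4.94 (SD, n = 5) in L-DOPA and 14.4 bp ± 3.19 (n = 8) in lesioned saline libraries. With them it lay at 12.03 bp ± 5.84 (n = 7) and 14.4 bp. In the same order it lay at 12.9 and 15.8 bp in the first library number run. In the second it lay at 11.4 and 10.2 bp, so the sign turned. The cause was not tested. A binomial model without overdispersion called 3 of 42 boundary tiles (16.6% of all tiles) and 4 of 129 boundary CpGs (6.68% of all CpGs) between L-DOPA and lesioned saline. With unlesioned libraries, which chose the boundaries so that nothing is read from it, it called 3 tiles (23.3%) and 4 CpGs (11.6%) for L-DOPA, and 0 tiles (14.5%) and 5 CpGs (4.92%) for lesioned saline. This model leaves out the spread between libraries. The other models and settings run called 0 boundary steps, tiles or CpGs, and 0 steps with each library left out (0 to 0).

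Same-numbered samples did not deviate together over common tiles. Correlations were -0.179 to 0.210 between L-DOPA and lesioned saline, best with the own number in 1 of 7. They were -0.176 to 0.300 between lesioned and unlesioned saline (1 of 6) and -0.458 to 0.187 between L-DOPA and unlesioned saline (0 of 6). The numbers were therefore not taken as pairing. With the replicate block the difference in mean step was 0.423 points and in mean position -0.456 bp, and 0 boundary steps, tiles or CpGs were called.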

Other observations

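Abrupt changes between neighbouring CpGs were also counted outside tiles. Among neighbouring CpGs measured in all libraries on chromosomes 1 to 20, of which at least 1 stood under 10% in unlesioned striatum, the other stood at 80% or above in 941 of 378028 neighbours at 2 to 25 bp (0.249%). At 26 to 50 bp it did in 371 of 43035 (0.862%), at 51 to 100 bp in 128 of 18370 (0.697%), at 101 to 200 bp in 143 of 13075 (1.09%), at 201 to 300 bp in 69 of 4858 (1.42%) and at 301 to 450 bp in 53 of 3345 (1.58%). In the unlesioned means the 21 boundaries have no gap of 100 bp or less. They have 4 of 101 to 200 bp, 10 of 201 to 300 bp and 7 of 301 to 450 bp. Steep differences at closer spacing thus existed in these libraries, but none of them marked one of the 21 boundaries in the unlesioned means. In single libraries the change point of boundary 18 could also fall in another gap.

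A few CpGs inside or beside the gaps were measured in part of the libraries. At boundary 14 the CpG at 116704621 was measured in 17 libraries, with a median of 15 reads. It had means of 35.6% in unlesioned, 32.0% in lesioned saline and 27.2% in L-DOPA libraries. In the same order this CpG ranged from 6.25% to 83.3%, 18.2% to 46.7% and 12.5% to 40%, so the groups overlapped. It lies between a CpG of 2.14% and CpGs of 78.1% to 98.0%, in unlesioned means. At boundary 4 the CpG at 154723785, measured in 14 libraries with a median of 11.5 reads, had 68.9%, 82.7% and 67.6%. At boundary 17 the CpGs at 89024397 and 89024403, measured in 13 libraries, had means of 0% to 5.77% and extend the unmethylated side further into the gap. At boundary 21 the CpG at 28579199, in 15 libraries, had 74.5%, 78.7% and 64.0%. These CpGs entered no test of single CpGs. Their reads did count in the levels and steps of the tiles, in the libraries that listed them. The CpG of boundary 14 was listed in 6 unlesioned, 4 lesioned saline and 7 L-DOPA libraries, so it entered the step of that boundary unevenly.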
